A study of Mus musculus with 35 samples.

Results

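The genes described here were the protein-coding members of the Fox and Sox families of transcription factors, read in a list of peaks of HA-tagged NELFA in mouse embryonic stem cells. Members were taken by symbol from the RefSeq table of the mouse assembly, with Fox followed by a letter from a to s and a number, or Sox followed by a number, leaving out Sox2. There were 62 of them among 21887 protein-coding genes, 44 Fox and 18 Sox genes. Of the 62 members, 12 had a peak summit within 1 kb of a gene boundary, 12 more had one only deeper in the gene or within 10 kb of it, and 38 had none within 10 kb. Among all protein-coding genes, 18.8% had a boundary summit and 42.6% had one in the gene or within 10 kb.

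NELFA is a subunit of the negative elongation factor, which holds RNA polymerase II shortly after it starts to transcribe. The series has 35 libraries, and those that bear on the list are 7 chromatin immunoprecipitation (ChIP-seq) libraries. They came from E14 embryonic stem cells in medium with serum, LIF and the inhibitor pair called 2i. These cells carry a stable doxycycline-inducible transgene for NELFA tagged with Strep-HA and followed by a P2A peptide and EGFP. Every culture was induced with 0.4 µg/ml doxycycline over 16 h, so there is no uninduced ChIP library. In 3 replicates, chromatin was precipitated with a first HA antibody (3 libraries) or a second one (1 library), and 3 libraries were inputs. The ChIP-seq data are 1 list of peaks with no value for any single library, and how libraries were combined is not given. Peak values therefore have no replicate error, no condition can be compared with another, and read depth is unknown. The list holds no expression values, so the labelled cell type could not be checked against its markers.

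Forkhead (Fox) proteins bind DNA through a winged-helix domain, and several of them, such as the FoxA proteins, can bind nucleosomal DNA and open chromatin. Sox proteins carry an HMG box, which binds the minor groove and bends DNA, and they usually act with a partner such as a POU factor. Both families hold many genes that are silent in embryonic stem cells until a lineage forms, and a smaller number that are transcribed in most dividing cells. NELF and paused polymerase are known mainly from the starts of genes that are being transcribed.

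Below are the 250 bases before 4 annotated starts, from RefSeq on GRCm38.p6, the assembly that mm10 names. They show the member with the strongest boundary peak (Foxj3), a start far inside the gene that lay in a peak (Foxp1), the Sox gene with the strongest boundary peak (Sox1), and a stem cell gene with no peak within 10 kb (Foxd3). Each is written 5′ to 3′ on the strand of the gene, with capitals for bases that lie inside a deposited peak interval.
Foxj3, chr4:119539411-119539660, plus strand: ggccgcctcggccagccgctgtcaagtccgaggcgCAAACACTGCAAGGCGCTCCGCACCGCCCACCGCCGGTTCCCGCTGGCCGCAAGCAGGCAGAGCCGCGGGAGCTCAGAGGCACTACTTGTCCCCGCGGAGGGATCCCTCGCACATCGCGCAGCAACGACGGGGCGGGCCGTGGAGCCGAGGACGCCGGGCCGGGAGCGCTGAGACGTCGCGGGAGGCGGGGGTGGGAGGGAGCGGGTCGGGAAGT
Foxp1, inner start, chr6:99028299-99028548, minus strand: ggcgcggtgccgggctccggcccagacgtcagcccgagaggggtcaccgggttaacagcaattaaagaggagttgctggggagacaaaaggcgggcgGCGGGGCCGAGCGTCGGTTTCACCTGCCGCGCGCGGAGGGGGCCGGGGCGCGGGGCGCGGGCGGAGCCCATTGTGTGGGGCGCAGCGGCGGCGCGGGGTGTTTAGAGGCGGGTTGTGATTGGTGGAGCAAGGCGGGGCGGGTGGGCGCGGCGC
Sox1, chr8:12395269-12395518, plus strand: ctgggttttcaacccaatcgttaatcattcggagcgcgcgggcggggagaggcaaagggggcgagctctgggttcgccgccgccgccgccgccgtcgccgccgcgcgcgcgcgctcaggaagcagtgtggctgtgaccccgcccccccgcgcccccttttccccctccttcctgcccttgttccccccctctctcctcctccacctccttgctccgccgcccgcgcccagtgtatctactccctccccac
Foxd3, chr4:99656049-99656298, plus strand: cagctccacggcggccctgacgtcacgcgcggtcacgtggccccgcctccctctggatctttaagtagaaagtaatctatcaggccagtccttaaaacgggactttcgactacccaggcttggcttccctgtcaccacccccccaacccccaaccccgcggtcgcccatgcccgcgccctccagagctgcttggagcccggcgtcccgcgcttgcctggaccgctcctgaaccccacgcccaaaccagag
At Foxj3, 215 of the 250 bases lay in the peak, and at the inner start of Foxp1 153 did. At Sox1 the peak began downstream of the start, so none of these bases is in capitals. All 4 stretches are rich in C and G, the one at Foxd3 with no listed peak within 10 kb included.

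The share of members with a boundary peak was close to that of all genes. Within 1 kb of one or the other end of the gene, a summit was found at 12 of 62 members (19.4%, 95% Wilson interval 11.4 to 30.9%), against 18.8% of all protein-coding genes. Intervals here cover counting error only. By family, 10 of 44 Fox genes (22.7%, 12.8 to 37.0%) and 2 of 18 Sox genes (11.1%, 3.10 to 32.8%) had one. The control windows 5 to 7 kb outside the gene held a summit at 6 of 62 members (9.68%), against 8.6% of all protein-coding genes. These were 3 of 10 on chromosomes 6 and 8 (30.7% of all genes there) and 3 of 52 on the others (6.17%). Members are short, with a median length of 5172 bp against 17169 bp for all protein-coding genes. The 1 kb windows have the same size at every gene, so they cover more of a typical member without searching more sequence.

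Most boundary peaks of the families lay on chromosomes 6 and 8, where the whole list is dense. These chromosomes hold 16044 of the 59485 peaks (27.0%), 9.91% of the protein-coding genes and 10 of the 62 members (16.1%). On them, 8 of 10 members had a boundary summit (80.0%, 49.0 to 94.3%), against 50.3% of their protein-coding genes. This order did not hold for stronger peaks: 3 of 10 had one at or above the list's median fold (34.0% of all genes there), and 1 of 10 at a −log10 q of at least 4 (26.5%). On the other chromosomes 4 of 52 had one (7.69%, 3.03 to 18.2%), against 15.4%. The 8 were Foxi3, Foxj2, Foxm1, Foxp1 and Sox5 on chromosome 6 and Foxf1, Foxl1 and Sox1 on chromosome 8, and the 4 were Foxj3, Foxl2, Foxn2 and Foxo3. Both Sox genes with a boundary peak are among the 8. Of the 16 Sox genes on other chromosomes none had one, a count that allows a share of up to 19.4% by the Wilson interval. Outside 1 Mb windows that hold 30 or more peaks, 5 of 51 members had one (9.8%), against 13.5% of all genes there. What the density of peaks on chromosomes 6 and 8 contributes to these counts was not tested.

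**Figure D1:**
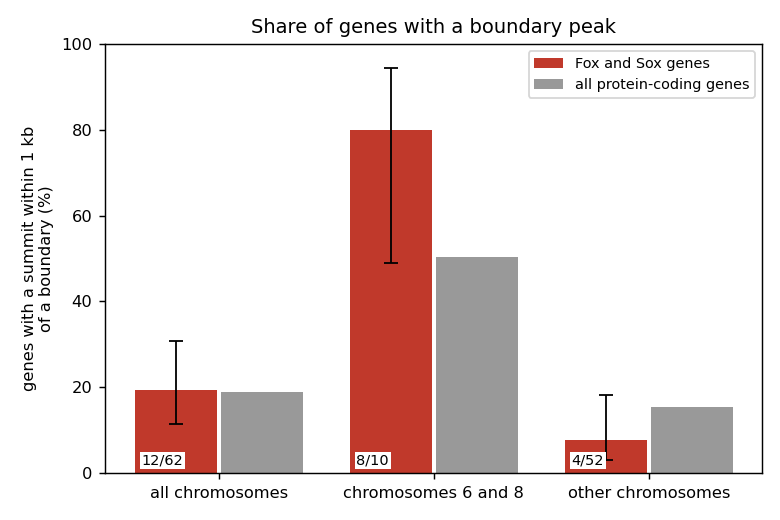
Share of genes (%) with a summit within 1 kb of a boundary, for Fox and Sox genes (red, with 95% Wilson intervals and counts) and all protein-coding genes (grey), over all chromosomes, chromosomes 6 and 8, and the others. The pooled bars stand at 19.4% and 18.8%, while the members' bar is the higher one on chromosomes 6 and 8, with all peaks counted but not with the stronger ones alone, and the lower one elsewhere.

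The boundary peaks of the members were weak. Fold enrichment, the linear ratio the authors' peak caller gave each peak, is used here only to describe and rank peaks within the list. The strongest boundary peak of each of the 12 members ranged from 1.82 to 2.9, with a median of 2.04, where the 4121 protein-coding genes with a boundary peak had a median of 2.22 (quartiles 2.0 and 2.72). Of the 12, 10 lay at or below that median, and Foxj3 and Sox1 lay above it. Only these 2 had a boundary peak with a −log10 q of at least 4, so with that limit 2 of 62 members counted, against 9.81% of all protein-coding genes. The lowest −log10 q in the list is 1.31.

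Foxj3, a forkhead factor made in many tissues (chromosome 4, 119539661 to 119629119), had the strongest boundary peak of the families. It spanned 119539446 to 119540055, had a fold of 2.9 and a −log10 q of 10.57, and its summit lay 110 bp inside the start. At 610 bp it was also the widest boundary peak of a member, where the 14 boundary peaks of members had a median width of 133.5 bp. Foxj2, its paralogue on chromosome 6 (122820184 to 122845366), had a peak at each end. The summit 76 bp inside the start had a fold of 2.0 and the one 520 bp inside the 3′ end a fold of 2.09. A stronger peak of Foxj2, with a fold of 3.0, lay 8894 bp upstream of the start. The third FoxJ gene, Foxj1, which drives the formation of motile cilia, had no summit within 10 kb.

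Among the other members known from many dividing cells, Foxm1, an activator of genes for mitosis, had a boundary fold of 2.04 with the summit 146 bp inside (chromosome 6, 128362994 to 128375886). The same summit lay within 1 kb of a boundary of the neighbouring gene Rhno1, so it cannot be assigned to either. Foxo3, a stress-response factor restrained by AKT, had a fold of 1.82 with the summit 284 bp upstream of the start, the weakest of the 12. Its relatives Foxo1, Foxo4 and Foxo6 had no summit within 10 kb, and the nearest lay 36105, 232522 and 155218 bp away. Foxn2 had a fold of 1.91 with the summit 523 bp inside its lower-coordinate end. Foxp1, which acts in lymphocytes and in stem cells, had a fold of 1.95 with the summit 223 bp outside its higher-coordinate end.

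The remaining members with a boundary peak are known as genes of particular lineages. Sox1, a marker of neural progenitors (chromosome 8, 12395519 to 12399555), had a fold of 2.31 and a −log10 q of 5.05, with the summit 147 bp inside the start. The summit also lies within the annotated noncoding gene Sox1ot. Foxi3, a gene of the ear and of ectodermal organs (chromosome 6, 70956606 to 70961066), had a fold of 2.18 at 209 bp inside the start. Foxl2, a factor of ovarian granulosa cells, had a fold of 1.91 at 831 bp inside the start. Sox5, which acts in cartilage and neural cells, had a fold of 1.86 at 471 bp inside its higher-coordinate boundary.

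Foxf1, Foxc2 and Foxl1, genes of the mesoderm and gut mesenchyme, stand together on chromosome 8 from 121084386 to 121130644. Foxf1 had 2 boundary peaks, with folds of 2.04 and 1.91, at 172 bp outside and 15 bp inside its lower-coordinate end. Foxl1 had one of 2.04 at 413 bp inside, and Foxc2 had none, its closest summit lying 7526 bp away. In all, 8 summits lay in this cluster or within 10 kb of it, with folds of 1.86 to 2.04, in a 1 Mb window that held 109 peaks. The cluster of their paralogues on chromosome 13, Foxq1, Foxf2 and Foxc1 (31558170 to 31810635), had 1 summit of fold 1.86, in a 1 Mb window of 7 peaks. That summit was over 10 kb from each of the 3 genes. Per 100 kb, the clusters had 12.1 and 0.367 summits.

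**Figure D2:**
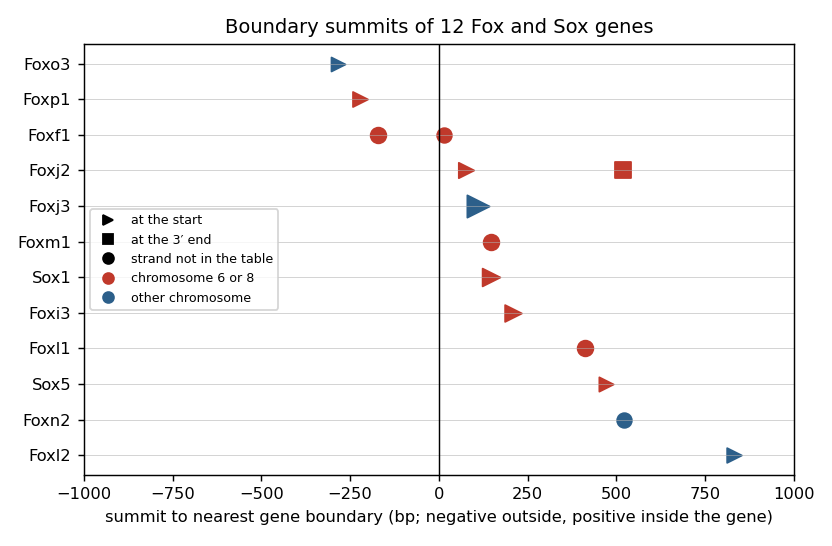
Distance in bp from each of the 14 boundary summits to the nearest boundary of its gene, negative outside and positive inside the gene, for the 12 members with one. The marker shape gives the end of the gene, its area grows with the fold, and colour marks chromosomes 6 and 8 (red) or others (blue). Of the 14 summits, 11 lie inside the gene, a count that is not given over all genes.

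Of the 14 boundary summits of members, 11 lay inside the gene and 3 outside, and 8 were within 250 bp of the boundary. Strand could be read from the promoter table for 40 of the 62 members. Read by strand, 8 of the boundary summits lay at the gene boundary on the start side and 1, the second of Foxj2, at its 3′ end, while 5 belong to members without an entry there. These counts of side and distance are not given over the boundary summits of all genes, so they show nothing particular to the members. For Sox5 and Foxp1 the boundary on the start side is not a start of the promoter table, whose nearest start lay 834710 and 1976 bp from the summit. The values just inside the 1 kb limit were 471 bp at Sox5, 523 bp at Foxn2 and 831 bp at Foxl2. Just outside it were 1503 bp at Sox30 and 2165 bp at Foxa1.

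Annotated starts inside the gene added members that the boundaries missed. The promoter table gives 50 starts for the 40 members, and 9 of these members (22.5%, 12.3 to 37.5%) had a summit within 1 kb of a start, against 18.6% of the 17492 protein-coding genes with an entry. Of the 9, 7 also had a boundary summit and 2, Foxa1 and Sox30, did not. Foxa1, a pioneer factor of endoderm, had a peak of fold 1.77 with the summit 247 bp downstream of its table start, at a −log10 q of 1.31, the lowest of the list. A boundary of the neighbouring gene Ttc6 lay within 1 kb of the same summit. Sox30, a gene of sperm formation, had one of 1.86 at 262 bp downstream. At Foxp1 the inner start at 99028298 had a peak from 99028249 to 99028451 with a fold of 2.04 and the summit 55 bp upstream, 494448 bp from the higher-coordinate end of the gene. Its other table starts, at 99266515 and 99520993, had no summit within 1 kb.

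All 9 member starts near a summit were rich in CpG. In the table's window of 300 bases (250 before and 50 from the start on) their GC content was 62.3 to 78.3% with a median of 71.3%, and the ratio of observed to expected CpG had a median of 0.871. The 41 other member starts had medians of 59.0% and 0.619. Over all 32851 starts in the table the same medians were 62.3% and 0.82 with a summit within 1 kb and 51.7% and 0.329 without one. GGGCGG, the core of the SP motif, was found on either strand in 9 of the 9 windows and in 22 of the other 41, where 35.7% of all windows hold it. Among all windows near a summit 63.0% hold it, and among all windows without one 31.3%. The FOX letters TGTTTAC were in 1 of the 9 (3.65% of all windows and 2.92% of those near a summit), the SOX letters ACAAAG or ACAATG in 3 (28.6% and 18.7%) and CCAAT in 4 (37.4% and 36.7%). TATAAA (13.6% and 8.53%), CCGGAAG (8.86% and 16.3%) and GCATGCGC (2.71% and 6.87%) were in none of the 9. Some of these letter strings can share bases, and each was searched on both strands and counted on its own. A match describes the letters and says nothing of what binds there.

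The strongest peak in or near any member was inside Foxj3. It spanned 119595340 to 119595660 on chromosome 4, 321 bp, and had a fold of 16.38 and a −log10 q of 295.3, which made it number 28 of 59485 in the list. Its summit lay 55758 bp downstream of the start, and no other annotated gene covers it or has a boundary within 1 kb. A second peak just downstream of it had a fold of 1.91. Of the 80 distinct peaks in or within 10 kb of a member, only 4 reached a fold of 3, and 95% were below it, against 85.8% of the whole list. The other 3 were inside Foxn3 (3.49), inside Sox5 (3.18) and upstream of Foxj2 (3.0). By chromosome, 51 of the 80 lay on chromosomes 6 and 8.

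**Figure D3:**
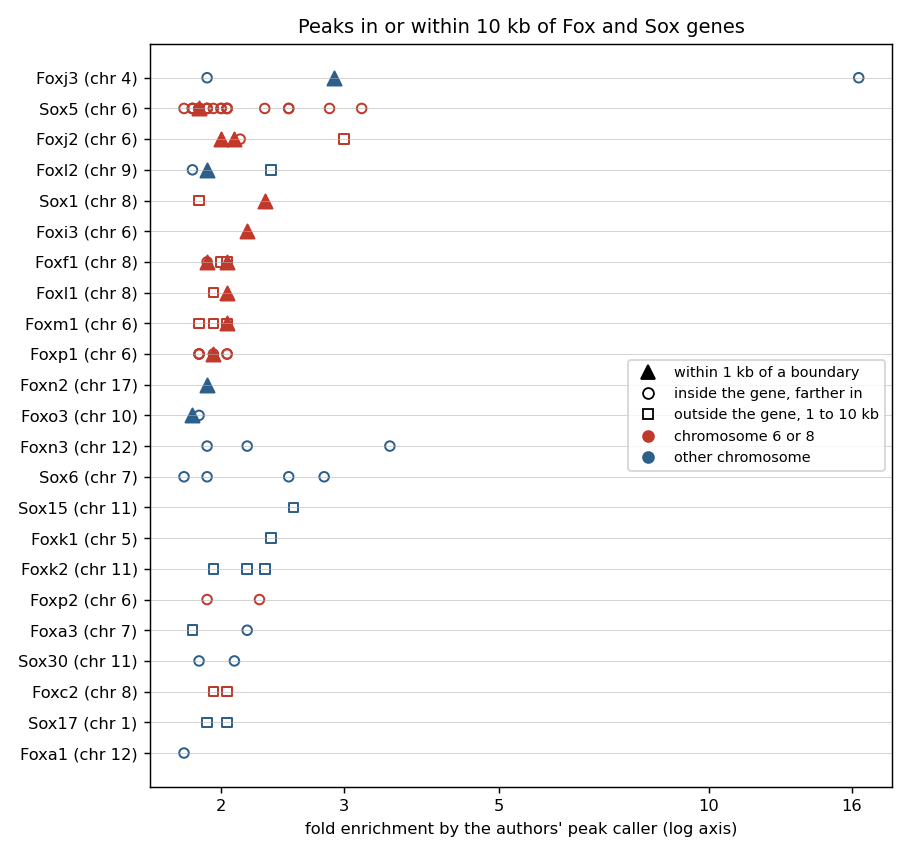
Fold enrichment (log axis) of every peak in or within 10 kb of the members that have one (1 is left out), by gene, with filled triangles for summits within 1 kb of a boundary, circles for summits farther inside, squares for summits 1 to 10 kb outside, and red for chromosomes 6 and 8. All values but that of 16.38 inside Foxj3 lie between 1.77 and 3.49.

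Counting any summit in the gene or within 10 kb, 24 of 62 members had one (38.7%, 27.6 to 51.2%), against 42.6% of all protein-coding genes. All 10 members on chromosomes 6 and 8 did (88.8% of all genes there), and 14 of 52 elsewhere (26.9%, 16.8 to 40.3%; 37.5% of all genes there). Summits farther than 1 kb inside were found in 14 of 62 members (22.6%, 14.0 to 34.4%), against 20% of all protein-coding genes. These were 5 of 10 on chromosomes 6 and 8 (59.0% of all genes there) and 9 of 52 on the others (15.7%). Both rules search more sequence in a longer gene, and members had a median length of 5172 bp against 17169 bp for all protein-coding genes. The 12 members with a summit within 10 kb but none at a boundary were led by Foxn3 (3.49), a gene known for checkpoint control. Sox6, a partner of Sox5 in cartilage, followed with 2.81. Sox15, a Sox gene of stem cells and myoblasts, had 2.54 at 5985 bp downstream of its 3′ end, within 1 kb of a boundary of Mpdu1. Foxk1 and Foxk2, which control glycolysis and autophagy genes, had peaks only beyond a gene boundary, of 2.36 at 8828 bp and of up to 2.31 at 2819 to 8433 bp. The Foxk1 summit lies within another annotated gene, Ap5z1. Foxp2, the gene linked to speech, had 2.27 and Foxa3, a liver factor, 2.18, both inside the gene. Sox30 (2.09), Foxc2 (2.04), Sox17 (2.04) and Foxa1 (1.77) had lower folds. The peak of 2.04 read for Foxc2 is the boundary peak of Foxl1, with its summit 9203 bp from Foxc2. Foxc2 counted within 10 kb only through peaks that were also counted for Foxl1. Sox17, an endoderm factor, had 2 summits at 5591 and 6557 bp outside its lower-coordinate end.

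Long members held most of the interior peaks. Sox5 spans 953863 bp of chromosome 6 and held 24 peaks with folds of 1.77 to 3.18 and a median of 1.91. That is 2.52 per 100 kb, where the 38 other protein-coding genes of at least 300 kb on chromosome 6 had a median of 2.5. The peaks fell into 2 sets, 5 within 128.3 kb of the lower-coordinate end, which is the 3′ end, and 19 beyond 608.0 kb, with 479.7 kb between them that held none. Foxp1, on the same chromosome and 597405 bp long, held 6 (1.0 per 100 kb), and 31 of the other 38 long genes were denser. Foxp2 held 2 in 540629 bp (0.37 per 100 kb), and 37 of 38 were denser. On chromosome 7, Sox6 had 4 peaks in 569905 bp (0.702 per 100 kb, where the 22 other long genes had a median of 0.306), and 7 of the 22 were denser. On chromosome 12, Foxn3 had 3 peaks, all between 314.92 and 316.04 kb from its lower-coordinate end. That is 0.803 per 100 kb, where 21 other long genes had a median of 0.55 and 8 of them were denser.

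**Figure D4:**
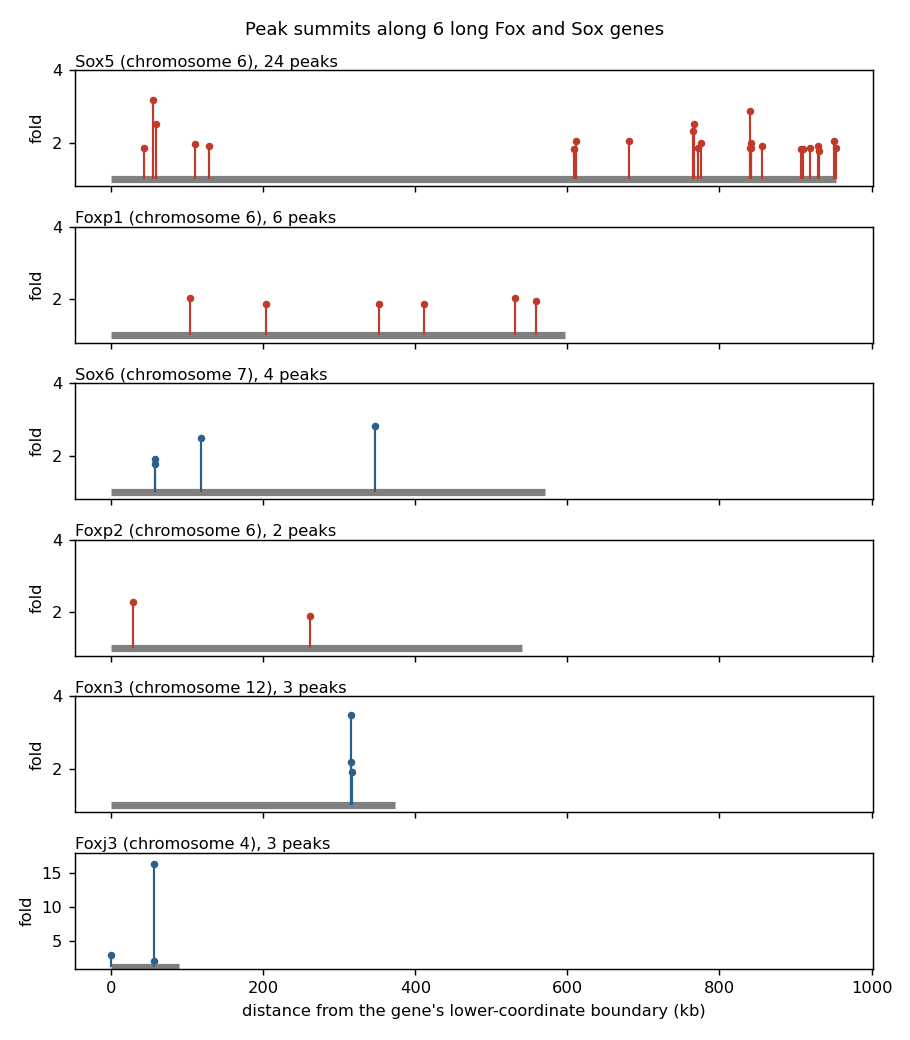
Position of each summit inside the 5 members longer than 300 kb and inside Foxj3, in kb from the lower-coordinate boundary, with height as fold enrichment (the axis of Foxj3 runs higher) and the gene as a grey bar. Sox5 shows 24 peaks in 2 sets, and Foxj3 the peak of 16.38.

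The 38 members without a summit within 10 kb were 26 Fox and 12 Sox genes, and none of them lies on chromosomes 6 or 8. Only 42.6% of all protein-coding genes, and 37.5% of those on other chromosomes, had a summit in the gene or within 10 kb. The closest summit of the 38 was 11.0 to 829 kb from a boundary, with a median of 85.9 kb, and it was over 100 kb away for 17. These distances are not given over all genes, so they describe the members only. Sox9, the gene of cartilage and testis development, was the farthest. All members of the classes FoxB, FoxD, FoxE, FoxH, FoxQ, FoxR and FoxS and of the Sox groups B2 (Sox14, Sox21), C (Sox4, Sox11, Sox12) and E (Sox8, Sox9, Sox10) were among the 38. Each of these classes and groups holds only 1 to 4 genes. In alphabetical order the 38 begin with Foxa2, Foxb1, Foxb2, Foxc1, Foxd1, Foxd2, Foxd3 and Foxd4. Foxd3 is needed for pluripotent cells of the early embryo, and its closest summit was 38926 bp away. Foxh1, the Smad partner in Nodal signalling, had its closest at 10996 bp.

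A list of 19 members known from background as widely transcribed or as stem cell genes had a boundary summit in 6 cases (31.6%), and the other 43 in 6 (14.0%), beside 18.8% of all protein-coding genes. On chromosomes other than 6 and 8 these were 3 of 16 (Foxj3, Foxn2 and Foxo3) and 1 of 36 (Foxl2), shares of 18.8% and 2.78% beside 15.4% of all genes there. The list rests on general knowledge, since no expression was measured in the data used here, and the difference was not tested. Foxd3, Foxh1, Foxo1, Foxo4, Foxp4, Sox4, Sox11, Sox12 and Sox13 belong to the 19 and had no summit within 10 kb.

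Genes that act with these factors are given by count. Of 22 regulators of FOXO proteins, none on chromosomes 6 or 8, 12 had a boundary summit (54.5%, median fold 2.36), beside 15.4% of all protein-coding genes off chromosomes 6 and 8 and a median fold of 2.22 over all chromosomes. Sirt1, a deacetylase, led with 4.31, followed by the 14-3-3 gene Ywhah (3.36) and the export receptor gene Xpo1 (2.68), and the kinase genes Akt1 and Akt2 had none. Of 14 partners of FOXH1 in Nodal signalling, likewise none on chromosomes 6 or 8, 1 had one (7.14%, beside the same 15.4%), Smad4 (2.68), and Acvr1b and Acvr2a were among those without. Of 24 partners of Sox proteins, POU genes included, 6 had one (25%, beside 18.8% of all genes), led by the β-catenin gene Ctnnb1 (5.67), Tcf7l1 (2.45) and Pou2f1 (2.18), and Lef1 and Nfia had none. All 3 partners on chromosomes 6 and 8 were among the 6, and elsewhere 3 of 21 had one (14.3%, beside 15.4% of all genes there). Set beside the families' 12 of 62, Hox genes had a boundary summit in 4 of 39 cases (10.3%) and Klf genes in 12 of 17 (70.6%), beside 18.8% of all protein-coding genes. On chromosomes other than 6 and 8 these were 1 of 28 and 9 of 13, against 4 of 52 Fox and Sox genes and 15.4% of all genes there. These differences between lists were not tested.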

How the data were processed

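ChIP-seq libraries were represented by 1 deposited peak list in narrowPeak layout with no header. Per the submitters' processing notes, the tools were Bowtie2 2.2.9, MACS2, Trim Galore 0.4.2 and SAMtools 1.4, and the build mm10. All 59485 peak names hold the tags R1234 and MAPQ0. Their meaning, the way libraries were combined, the treatment of reads with several alignments and the call settings: not given in the sources used here. The deposited fold enrichment is a linear ratio, and the deposited significance columns are the −log10 of a p-value and a q-value. The deposited display score was not used. The deposited list gives neither counts nor depth.

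Summits were the interval start plus the deposited offset. Genes came from the RefSeq table of GRCm38.p6 (chromosomes 1 to 19, X and Y), which has no strand, and starts, strands and promoter sequence from the RefSeq promoter table, in which 40 of 62 members matched. A window of 1 Mb was called dense with 30 or more peaks, and a gene was placed by its midpoint. No test across genes was run, and shares carry 95% Wilson intervals. The scoring was tested on simulated data, in which 200 of 200 genes given a summit were found among 21887 scored.

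The members and lists were chosen with earlier results of these data known. All members with a boundary summit were named, then the 8 with the highest fold within 10 kb, then the first 8 in alphabetical order without a summit; for other lists, up to 3 with the highest boundary fold and 2 without. Foxa1, Foxc2 and Sox17, and the members named among those without a summit beyond these 8, were named after their values were seen. The starts and the split by chromosomes 6 and 8 were likewise added after the data were seen. Alternatives were windows of 500 bp and 2 kb, flanks of 5 and 20 kb, 2 limits on peak strength, overlap of intervals, and leaving out dense windows or chromosomes 6 and 8. One item that the rule covers is not reported here. Analyses ran in Python 3.11.15 (pandas 2.3.3, numpy 2.4.6, matplotlib 3.10.9, scipy 1.17.1).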

Additional observations from a re-analysis of the deposited data

How the results depend on the processing

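The list has no value for a single library, so no replicate could be left out. No paired analysis was possible because the replicates share 1 pooled list. The 12 members with a boundary summit were the same 12 when intervals replaced summits. A 500 bp window kept 10 of them (without Foxl2 and Foxn2), and a 2 kb window added 2 members, Sox30 among them. These 10 and 14 of 62 members stood beside 16.1% and 21.8% of all protein-coding genes under the same windows.

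The counts changed most with the strength asked of a peak. When a peak had to reach the list's median fold, the boundary count was 4 (3 on chromosomes 6 and 8, 1 elsewhere), the count within 10 kb 14, the interior count 8 and the control count 2. With a −log10 q of at least 4 they were 2 (1 and 1), 11, 5 and 2, and the median boundary fold was 2.61. Without chromosomes 6 and 8 the 4 counts were 4, 14, 9 and 3, and outside dense windows the boundary count was 5 and the control count 3. On chromosomes other than 6 and 8, a 500 bp window left 2 of 52 members with a boundary summit, against 13.4% of all genes there. The 1 member elsewhere stood beside 10.1% of all genes there at the median fold and 7.98% at a −log10 q of at least 4. The share of all protein-coding genes with a boundary summit fell too, to 12.4% at the median fold, 9.81% at a −log10 q of at least 4, 13.5% outside dense windows and 15.4% without chromosomes 6 and 8. For the counts within 10 kb, inside the gene and in the control windows, the shares of all genes were 31.0%, 13.5% and 4.93% at the median fold and 25.6%, 10.9% and 3.97% at a −log10 q of at least 4. Without chromosomes 6 and 8 they were 37.5%, 15.7% and 6.17%, and the control share outside dense windows was 4.03%. On chromosomes 6 and 8, the members' 3 of 10 at the median fold was near the 34.0% of all genes there, and their 1 of 10 at a −log10 q of at least 4 stood beside 26.5%. The other 22 values kept within 1.5 times of the count, or within 1 SD of the median fold. Of the folds named for single members, 2 changed with the window, to 2.0 at Foxj2 (500 bp) and 1.86 at Foxo3 (2 kb).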

Other observations

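Other families of developmental transcription factors were read in the same way. Klf genes had a boundary summit in 12 of 17 cases (70.6%). None was found at 9 Pax, 13 Tbx, 8 Lhx or 14 Nkx genes. Gata genes had 1 of 6, with a fold of 1.82, and Irx genes 1 of 6, with a fold of 2.13, both on chromosomes 6 and 8. That is 16.7% in each of these 2 families, near the 18.8% of all protein-coding genes. Within 10 kb, summits were found at 0 of 9 Pax, 2 of 13 Tbx, 2 of 8 Lhx, 3 of 14 Nkx, 2 of 6 Gata and 2 of 6 Irx genes. Klf genes had one in 14 of 17 cases and Hox genes in 15 of 39. Over all protein-coding genes the shares were 18.8% at a boundary and 42.6% within 10 kb. Off chromosomes 6 and 8 they were 15.4% and 37.5%. All Tbx and Lhx genes, and all but 1 Pax and 1 Nkx gene, lie on those other chromosomes. The families were small and the differences from these shares were not tested.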
